A study of Mus musculus with 8 samples.

Results

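The genes described here encode 10 of the tubulin isoforms. They comprise 5 α-tubulins (*Tuba1a*, *Tuba1b*, *Tuba1c*, *Tuba4a* and *Tuba8*) and 5 β-tubulins (*Tubb2a*, *Tubb2b*, *Tubb4b*, *Tubb5* and *Tubb6*). They are identified by gene symbol. All 10 were found among the 22664 gene symbols of the array table, each on 1 of its 22206 probe sets, and the array software marked all 10 as expressed in both groups. Further α- and β-tubulin genes of the array are given below among the other tubulin genes.

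Gastrocnemius (GAS) muscles of male C57/Bl6j mice were injected when the mice were about 10 weeks old. The vector was an adeno-associated virus (AAV), which carried a short hairpin RNA (sh-RNA) under the U6 promoter, which is not restricted to muscle fibres. One leg received AAV sh-RNA MYTHO, here called MYTHO-KD, and the contralateral leg received AAV sh-RNA scrmb, here called scramble, so that virus, promoter and route of injection were shared by both groups. Total RNA was taken 12 weeks later, at 22 weeks of age, and hybridized to Clariom S Mouse arrays, 4 for each group. Whole muscle was used, so a signal sums over all its cell types, and fewer cells of a type and less RNA per cell cannot be told apart.

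α- and β-tubulin join into the dimer from which microtubules are built. In mature muscle fibres, microtubules form a grid below the membrane and start from the nuclear envelope and Golgi elements rather than from a single centrosome. The isotypes are closely alike and differ mainly in their C-terminal tails, where most of the modifications of the microtubule surface are made. Because the genes are alike, probes for one may also bind the transcript of another, and the cross-hybridization column of the table holds the same value throughout and does not separate them.

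The values are the authors' average and SD of each group on the log2 scale, on which a difference of 1 is a 2-fold change. The averages of all probe sets ran from 3.18 to 19.93, and the SD had a median of 0.27 in each group. Arrays have no sequencing depth, and 4 arrays for each group limit the precision. The average of *D230025D16Rik*, the gene for MYTHO, was 7.71 (SD 0.66) in MYTHO-KD and 10.02 (SD 0.37) in scramble, a log2 difference of -2.31 (adjusted p = 0.0138 in limma's moderated test). The fibre markers *Ckm*, *Acta1*, *Myh4*, *Tnnt3* and 7 others had averages between 17.58 and 19.93 in scramble and between 17.80 and 19.93 in MYTHO-KD. Signals this bright are close to the maximum, so that changes may be hidden, whereas the brightest tubulin average was 15.96.

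Each of the 10 tubulin isoforms had a higher average in MYTHO-KD than in scramble. The log2 differences ran from 0.06 for *Tuba4a* to 0.99 for *Tubb6*, with a median of 0.585, while the median over all probe sets was -0.01 and 46.9% of them were higher. In limma's moderated test, computed from the averages and SDs, 5 of the 10 were higher at an unadjusted p under 0.05, and none was lower. These were *Tuba1a*, *Tuba1b*, *Tuba1c*, *Tubb2a* and *Tubb6*. Of all probe sets, 6.48% were higher at this threshold and 5.52% were lower. When p was adjusted over the whole array (Benjamini-Hochberg), no isoform passed 0.05 in limma's test, the lowest adjusted p being 0.0903 for *Tubb2a*, while 0.18% of all probe sets were higher and passed. None reached the 2-fold limit used in the study, which 0.86% of all probe sets passed upward at an unadjusted p under 0.05. The values below are therefore given as differences of averages with their errors. The band of 1 SD around the average in MYTHO-KD lay wholly above that in scramble for 3 isoforms (*Tuba1a*, *Tubb2a* and *Tubb6*), as it did for 4.03% of all probe sets.

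**Figure D1:**
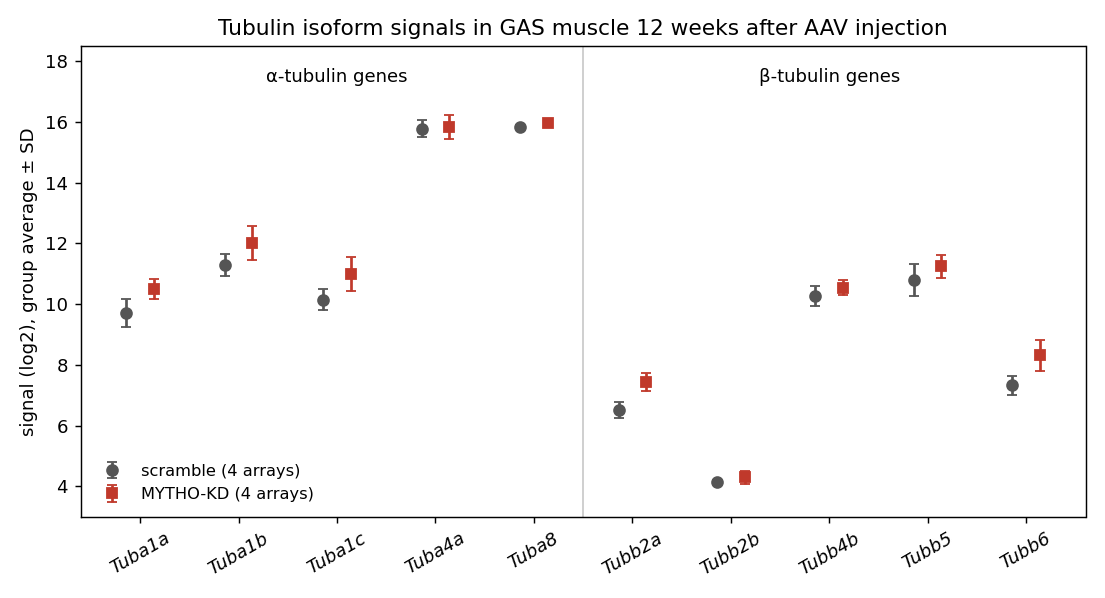
Authors' average signal (log2) of each tubulin isoform with its SD as the bar, for scramble (circles) and MYTHO-KD (squares), 4 arrays each. Every square stands above its circle, by 0.06 for Tuba4a up to 0.99 for Tubb6. Levels of different genes come from different probes and are not to be compared.

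The α-tubulins comprised genes with a difference of 0.72 or more and genes with a difference of 0.13 or less. *Tuba1a*, *Tuba1b* and *Tuba1c* belong to the former. They are neighbours on chromosome 15 (mm10), where *Tuba1b* spans 98931425 to 98934565, *Tuba1a* 98949839 to 98953551 and *Tuba1c* 99029891 to 99038112. *Tuba1a* and *Tuba1b* are read from the minus strand and *Tuba1c* from the plus strand. *Tuba1a* is best known as the main α-tubulin of developing neurons, and *Tuba1b* and *Tuba1c* are made in most dividing cells. *Tuba4a* on chromosome 1 and *Tuba8* on chromosome 6 belong to the latter, and both are known to be abundant in skeletal muscle.

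The average of *Tuba1a* was 9.70 (SD 0.46) in scramble and 10.49 (SD 0.32) in MYTHO-KD. Its log2 difference was 0.79 (standard error 0.244, adjusted p = 0.213), or 1.73-fold with a 95% interval from 1.20 to 2.50. For *Tuba1b* the average was 11.28 (SD 0.36) in scramble and 12 (SD 0.56) in MYTHO-KD, so that the bands of 1 SD overlapped. The difference of *Tuba1b* was 0.72 (standard error 0.276, adjusted p = 0.323), or 1.65-fold with an interval from 1.09 to 2.50. Without moderation of the variances, and with unequal variances, *Tuba1b* did not pass the unadjusted threshold. *Tuba1c* went from 10.15 (SD 0.36) to 11.00 (SD 0.56), a difference of 0.85 (standard error 0.276, adjusted p = 0.238) or 1.80-fold, with an interval from 1.19 to 2.74 and bands of 1 SD that overlapped. *Tuba1b* and *Tuba1c* had the same SDs in both groups, a pair of values that 3 probe sets of the table share, and their differences were 0.13 apart. Whether their probes read each other's transcripts was not tested.

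No upward difference of this size was seen around the *Tuba1* genes. Within 200 kb of the cluster, 15 other probe sets were on the array. Of these, 7 were higher in MYTHO-KD, 0 were higher at an unadjusted p under 0.05 and 1 was lower at that threshold in limma's test, with differences from -0.85 to 0.19 and a median of -0.02.

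For the fibre-rich α-tubulins the averages of the groups lay close together. *Tuba4a* had an average of 15.78 (SD 0.27) in scramble and 15.84 (SD 0.39) in MYTHO-KD. The difference was 0.06 (standard error 0.22, adjusted p = 0.956), and the 95% interval of the fold change, 0.747 to 1.45, left out a change of 2-fold in either direction. *Tuba8* had 15.83 (SD 0.07) in scramble and 15.96 (SD 0.14) in MYTHO-KD, a difference of 0.13 (standard error 0.152, adjusted p = 0.806) with an interval of the fold change from 0.87 to 1.38. Whether the differences of *Tuba1a*, *Tuba1b* and *Tuba1c* exceeded those of *Tuba4a* and *Tuba8* was not tested, since this needs the values of single arrays. The 95% interval of each of the former overlapped those of the latter.

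**Figure D2:**
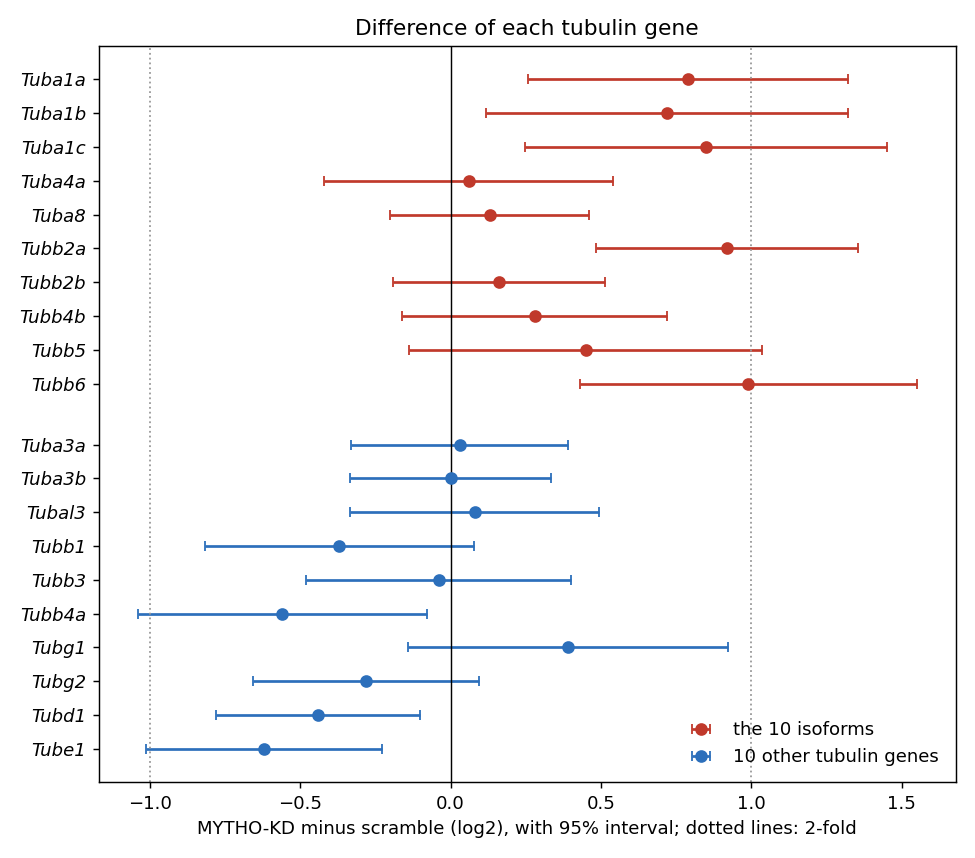
Difference of the group averages, MYTHO-KD minus scramble (log2), with its 95% interval from limma's moderated test, for the 10 isoforms (upper block) and the 10 other tubulin genes of the array (lower block). The intervals of Tuba1a, Tuba1b, Tuba1c, Tubb2a and Tubb6 lie above 0, and those of Tubb4a, Tubd1 and Tube1 lie below it.

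Among the β-tubulins, *Tubb2a* and *Tubb6* showed the larger differences and *Tubb2b*, *Tubb4b* and *Tubb5* the smaller ones. *Tubb6* is known as a β-tubulin of low level in mature fibres that is raised in regenerating and dystrophic muscle. Its average was 7.32 (SD 0.32) in scramble and 8.31 (SD 0.51) in MYTHO-KD, with bands of 1 SD that did not overlap. The difference was 0.99 (standard error 0.257, adjusted p = 0.147), or 1.99-fold with an interval from 1.35 to 2.93, and 0.946% of all probe sets had a difference as high or higher. When the median difference of all probe sets was subtracted, *Tubb6* came to 1.00 and so passed 2-fold.

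*Tubb2a* encodes a β-tubulin that is abundant in brain. Its average was 6.51 (SD 0.26) in scramble and 7.43 (SD 0.30) in MYTHO-KD, again with bands of 1 SD that lay apart. The difference of 0.92 (standard error 0.2, adjusted p = 0.0903) came to 1.89-fold, with an interval from 1.40 to 2.56. This was the lowest p of the isoforms, and its adjusted p ran from 0.0598 to 0.402 over the settings tried. *Tubb2b*, the near-identical copy of *Tubb2a*, lies 49.0 kb away on chromosome 13 (mm10), at 34127008 to 34130354 against 34074278 to 34078008 for *Tubb2a*. The average of *Tubb2b* was 4.14 (SD 0.07) in scramble and 4.30 (SD 0.21) in MYTHO-KD, near the floor of the scale, where a change can be hidden. Its difference was 0.16 (standard error 0.162, adjusted p = 0.766). Of the 7 other probe sets within 200 kb of these genes, 5 were higher in MYTHO-KD, 1 of them at an unadjusted p under 0.05, with a median difference of 0.21.

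*Tubb5* and *Tubb4b* encode the β-tubulins found in nearly all cells. *Tubb5* (chromosome 17, 35833920 to 35838306) had an average of 10.80 (SD 0.52) in scramble and 11.25 (SD 0.38) in MYTHO-KD. The difference of 0.45 (standard error 0.269, adjusted p = 0.558) was within the spread of the arrays, with an interval of the fold change from 0.909 to 2.05. *Tubb4b* (chromosome 2, 25222158 to 25224702) went from 10.26 (SD 0.32) to 10.54 (SD 0.25), a difference of 0.28 (standard error 0.202, adjusted p = 0.644) with an interval from 0.895 to 1.65. For both genes the bands of 1 SD overlapped, and neither p shows that the groups were alike.

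The spread itself was not uniform over the isoforms. The SD was larger in MYTHO-KD than in scramble for 7 of the 10, with a median of 0.35 in MYTHO-KD and 0.32 in scramble, against 0.27 in each group over all probe sets. Over the whole array the SD was larger in MYTHO-KD for 10686 of 22206 probe sets. Of the 5 isoforms with an unadjusted p under 0.05, *Tuba1a* alone had the larger SD in scramble.

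To show the DNA at which these genes start, the promoter windows of the isoforms at an unadjusted p under 0.05 are set beside those of *Tuba4a* and *Tuba8*. The RefSeq table used (GRCm38.p6, the build named mm10 in the array table) holds a window of 300 bases, 250 before the annotated start and 50 from it onward, for 8 of the 10 isoforms. It has no entry for *Tubb2b* or *Tubb6*. Capitals mark every match on either strand to the TATA box (TATAAA), the CCAAT box (CCAAT), the GC box (GGGCGG), the E-box (CANNTG, the motif of the myogenic factors among others) and the CArG box of serum response factor. All are written in the direction of the gene.
Tuba1a, chr15:98953452-98953751, minus strand: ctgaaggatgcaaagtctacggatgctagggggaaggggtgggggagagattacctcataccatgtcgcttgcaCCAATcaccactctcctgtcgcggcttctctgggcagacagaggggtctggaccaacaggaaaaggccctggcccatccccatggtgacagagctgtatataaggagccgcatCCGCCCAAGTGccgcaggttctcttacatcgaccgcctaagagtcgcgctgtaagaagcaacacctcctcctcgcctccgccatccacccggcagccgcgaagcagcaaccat
Tuba1b, chr15:98934341-98934640, minus strand: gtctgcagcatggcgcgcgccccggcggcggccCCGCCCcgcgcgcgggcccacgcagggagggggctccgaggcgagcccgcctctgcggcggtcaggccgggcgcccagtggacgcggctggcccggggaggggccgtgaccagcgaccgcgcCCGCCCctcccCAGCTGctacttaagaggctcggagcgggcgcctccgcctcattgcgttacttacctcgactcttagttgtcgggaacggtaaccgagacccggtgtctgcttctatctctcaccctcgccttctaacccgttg
Tuba1c, chr15:99029641-99029940, plus strand: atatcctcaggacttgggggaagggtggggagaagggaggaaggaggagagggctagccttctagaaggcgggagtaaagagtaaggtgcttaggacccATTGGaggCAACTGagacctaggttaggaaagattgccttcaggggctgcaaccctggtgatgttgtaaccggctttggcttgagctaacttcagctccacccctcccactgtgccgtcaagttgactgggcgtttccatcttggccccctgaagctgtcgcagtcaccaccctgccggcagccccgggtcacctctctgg
Tubb2a, chr13:34077959-34078258, minus strand: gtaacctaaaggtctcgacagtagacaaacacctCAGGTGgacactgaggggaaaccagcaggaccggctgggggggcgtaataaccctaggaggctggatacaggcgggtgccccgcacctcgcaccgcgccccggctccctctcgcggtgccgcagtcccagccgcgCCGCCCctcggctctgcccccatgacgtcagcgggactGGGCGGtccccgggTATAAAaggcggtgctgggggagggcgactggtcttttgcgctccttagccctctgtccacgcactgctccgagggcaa
Tuba4a, chr1:75219245-75219544, minus strand: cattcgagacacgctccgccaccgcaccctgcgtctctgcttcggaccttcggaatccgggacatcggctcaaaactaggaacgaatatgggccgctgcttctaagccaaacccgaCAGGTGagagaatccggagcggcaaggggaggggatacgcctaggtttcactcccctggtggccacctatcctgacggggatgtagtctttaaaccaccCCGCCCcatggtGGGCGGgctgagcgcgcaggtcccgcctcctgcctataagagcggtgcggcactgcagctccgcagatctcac
Tuba8, chr6:121210484-121210783, plus strand: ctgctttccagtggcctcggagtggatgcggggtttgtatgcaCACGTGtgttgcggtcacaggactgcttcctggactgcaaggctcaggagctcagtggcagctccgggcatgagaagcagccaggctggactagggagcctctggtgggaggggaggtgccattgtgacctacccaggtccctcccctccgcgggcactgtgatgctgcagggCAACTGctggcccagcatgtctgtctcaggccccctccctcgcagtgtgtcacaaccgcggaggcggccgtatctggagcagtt

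An E-box stood in all 8 windows, beside 72.3% of all 32851 windows in the RefSeq table, and a GC box in 6, beside 35.7% of all windows. The CCAAT box was found in 4 of the 8 windows (37.4% of all), with 5 matches in *Tubb4b* alone, and the TATA box in 2 (13.6% of all). In *Tubb2a* the TATA box began 29 bases before the start, whereas the match in *Tubb4b* began 18 bases after it. Only exact matches to TATAAA were counted, so variants of the box were not. The CArG box was in 0 of the 8, and in 1.63% of all windows. The only overlap was in *Tuba1a*, where the GC box and the E-box share a base. Neither the windows of *Tuba1a*, *Tuba1b*, *Tuba1c* and *Tubb2a* nor those of *Tuba4a* and *Tuba8* had a motif in common beyond the E-box that all 8 held. The G and C content of the 8 windows ran from 53.7% to 72.7%, above the median of 52.7% over all windows. A match is a description of the letters and not a site of binding.

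**Figure D3:**
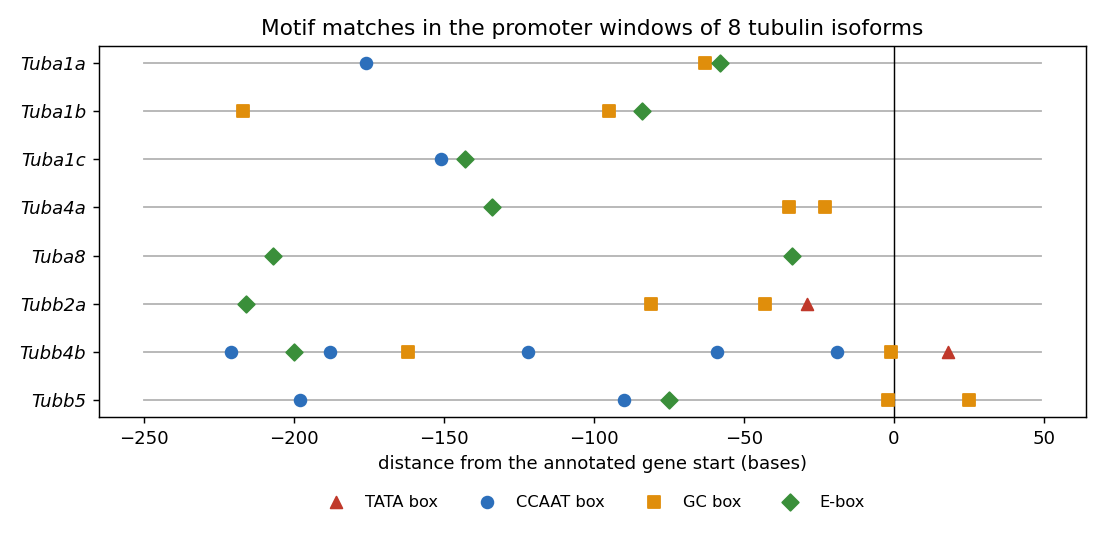
Positions of the motif matches in the promoter windows of 8 tubulin isoforms, with the distance in bases from the annotated start on the x axis and each match drawn at its first base. An E-box is present in every window, and no motif separates Tuba1a, Tuba1b, Tuba1c and Tubb2a from the other windows.

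The other 10 tubulin genes of the array, among them further α- and β-tubulins, did not follow the isoforms. Members and lists were chosen with earlier results of these data known, so this contrast is a description and not a test. The median log2 difference of the other genes was -0.16, with 3 higher, 6 lower and 1 equal in MYTHO-KD. At an unadjusted p under 0.05, 0 were higher and 3 were lower in limma's test, beside 6.48% and 5.52% of all probe sets. *Tube1* and *Tubd1*, the ε- and δ-tubulins known from centrioles, had differences of -0.62 (standard error 0.179, adjusted p = 0.189) and -0.44 (standard error 0.156, adjusted p = 0.285). *Tubb4a*, a β-tubulin of the nervous system, had -0.56 (standard error 0.22, adjusted p = 0.337), and it did not pass the unadjusted threshold without moderation or with unequal variances, which left 2 lower. The γ-tubulins, from which microtubules are nucleated, went apart without passing, at 0.39 for *Tubg1* (adjusted p = 0.577) and -0.28 for *Tubg2* (adjusted p = 0.569). *Tubb1*, the β-tubulin of platelets, had a difference of -0.37 (adjusted p = 0.511), and that of the neuronal *Tubb3* was -0.04 (adjusted p = 0.97). *Tuba3a*, *Tuba3b* and *Tubal3* lay between 0.00 and 0.08.

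Newly made tubulin is folded by prefoldin and the CCT chaperonin and then joined to a dimer by the tubulin cofactors. Of 14 chaperonin and prefoldin genes 3 were higher and 11 lower, with a median of -0.14, while 46.9% of all probe sets were higher. At an unadjusted p under 0.05, *Pfdn4* was lower (-0.34, adjusted p = 0.386) and *Pfdn6* higher (0.44, adjusted p = 0.411), while *Cct4* did not pass at -0.40 (adjusted p = 0.42). The 8 cofactor and message control genes had a median of 0.265, with 7 higher. Of these, *Tbca*, which holds β-tubulin, had the lowest p of the list (0.44, adjusted p = 0.416), followed by *Ttc5*, which marks tubulin messages for decay when free tubulin is high (0.49, adjusted p = 0.529), and *Tbcd* (0.34, adjusted p = 0.568).

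Genes that modify tubulin or bind the lattice went in both directions. Of 18 tubulin modifying genes, 2 were higher and 4 lower at an unadjusted p under 0.05, beside 6.48% and 5.52% of all probe sets. The plot names this list tail modifying enzymes, though not all of them act on the tails. *Atat1*, the acetyltransferase of α-tubulin, was 9.21 (SD 0.40) in MYTHO-KD and 8.30 (SD 0.39) in scramble, a difference of 0.91 (standard error 0.244, adjusted p = 0.154). The glutamylase *Ttll7* had 13.02 (SD 0.84) and 14.15 (SD 0.16), a difference of -1.13 (standard error 0.335, adjusted p = 0.199), and was the gene of this list past 2-fold. *Agtpbp1*, which removes glutamates, had -0.53 (adjusted p = 0.299).

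Of 27 lattice and plus-end binding genes, 5 were higher and 2 lower at this threshold, beside 6.48% and 5.52% of all probe sets. Their median was 0.14. *Map1lc3a*, which was first found as a light chain of microtubule-associated proteins and is an autophagosome protein, was 12.28 (SD 0.23) in MYTHO-KD and 11.12 (SD 0.50) in scramble, a difference of 1.16 (standard error 0.241, adjusted p = 0.0771). *Map1b*, which stabilizes microtubules in growing axons, had 1.04 (standard error 0.319, adjusted p = 0.210), and *Map1a* 0.82 (standard error 0.197, adjusted p = 0.120). The doublecortin-like *Dclk1* had 0.68 (adjusted p = 0.204), and was dim at 5.46 in MYTHO-KD and 4.78 in scramble. *Map1lc3a* and *Map1b* were the members of this list past 2-fold.

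The medians of the remaining lists were 0.095 for destabilizing and severing genes, -0.02 for nucleation and anchoring genes and -0.01 for motor genes. Of the 12 destabilizing and severing genes, 1 was higher at an unadjusted p under 0.05, the katanin-like *Katnal1* (0.72, adjusted p = 0.133), and 0 were lower. *Stmn4* had -0.35 (adjusted p = 0.441) and *Fignl1* -0.30 (adjusted p = 0.567). Of the 18 nucleation and anchoring genes, 0 were higher and 2 lower at this threshold in limma's test, *Cdk5rap2* (-0.56, adjusted p = 0.216) and *Camsap3* (-0.49, adjusted p = 0.265). *Tubgcp3* of the γ-tubulin ring had 0.48 (adjusted p = 0.48). Of the 27 kinesin and dynein motor genes, 3 were higher and 1 lower at this threshold, with *Dctn1* at 0.60 (adjusted p = 0.188), *Kif1b* at 0.47 (adjusted p = 0.340) and *Dctn6* at -0.90 (adjusted p = 0.115), the first and the last being dynactin subunits. Over the 134 genes of these 8 lists together, 13 were higher and 13 lower at an unadjusted p under 0.05, with a median of 0.00, and none passed the adjustment. Over all probe sets, 6.48% were higher and 5.52% lower at that threshold. The counts of the single lists are small and are to be read beside these shares.

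**Figure D4:**
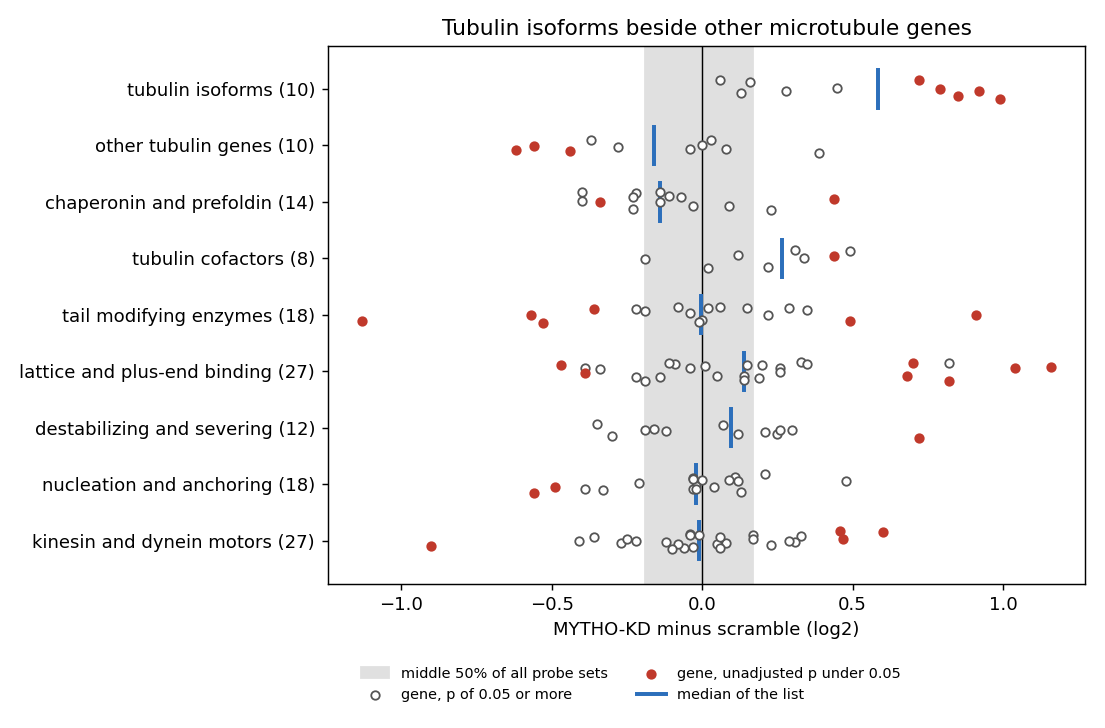
Difference, MYTHO-KD minus scramble (log2), of each gene of the tubulin isoforms and of 8 other microtubule lists, with the number of genes in brackets. Filled points have an unadjusted p under 0.05, blue lines are list medians and the grey band holds the middle 50% of all probe sets. The isoform median of 0.585 is above that of each other microtubule list, the next being 0.265 for the cofactors. Members and lists were chosen with earlier results of these data known.

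Tubulin genes are expressed in every cell type of muscle, so markers of other cells were set beside them. The counts below stand beside 46.9% of all probe sets that were higher, and 6.48% that were higher at an unadjusted p under 0.05. All 10 macrophage markers were higher in MYTHO-KD, 5 of them at an unadjusted p under 0.05. Their median difference was 0.695, above the 0.585 of the isoforms, and the mean of their averages was 8.083 against 7.162 in scramble. *Cd68*, a lysosomal protein of macrophages, had a difference of 2.53 (adjusted p = 0.0182), *Lyz2* 1.94 (adjusted p = 0.0277) and *C1qb* 1.27 (adjusted p = 0.0754). All 9 fibroblast markers were higher, 3 at that threshold, with mean averages of 10.486 and 9.731. Their median difference of 0.72 was also above that of the isoforms. *Lum* had 1.49 (adjusted p = 0.0443), *Col3a1* 1.43 (adjusted p = 0.102) and *Pi16* 1.14 (adjusted p = 0.126). The 8 endothelial markers were all higher too, with a median of 0.355 and 2 at the threshold, *Kdr* (0.75, adjusted p = 0.19) and *Eng* (0.64, adjusted p = 0.364), and *Tek* had 0.53 (adjusted p = 0.432).

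Of 10 markers of satellite cells and regenerating fibres, 6 were higher, 3 lower and 1 equal in MYTHO-KD, with a median difference of 0.115. In limma's test 2 were higher at an unadjusted p under 0.05, and under each other variance model 1 was. *Mymk*, which fuses myoblasts, had a difference of 1.77 (adjusted p = 0.0749), and the embryonic myosin *Myh3* had 1.27 (adjusted p = 0.366). *Myod1* had -0.40 (adjusted p = 0.577), and *Myh8* was at 19.93 in both groups, the top of the scale, as was *Myh4*. A change of *Myh8* would thus be hidden here, and whether its probes read transcripts of other myosins was not tested. By RT-qPCR in another muscle, the tibialis anterior, the paper found *Myh8* and *Myog* raised at several times after MYTHO-KD. On the arrays *Myog* had a difference of 0.21 (adjusted p = 0.72 in limma's test). None of the 9 markers of cycling cells passed the unadjusted threshold in limma's test, and their median was -0.20, with *Bub1* at -0.60 (adjusted p = 0.462), *Ccnb1* at -0.40 (adjusted p = 0.511) and *Cdk1* at -0.26 (adjusted p = 0.604). *Cdk1* was near the floor, at 3.71 in scramble and 3.45 in MYTHO-KD, and was not marked as expressed in either group. None of the 7 Schwann cell markers passed either, with a median of -0.14 and *Mbp* at -0.42 (adjusted p = 0.672), *Pmp22* at 0.28 (adjusted p = 0.735) and *Sox10* at -0.30 (adjusted p = 0.743). Of 7 axon and neuron markers 4 had a higher average, 2 of them at an unadjusted p under 0.05. These 2 were *Uchl1* (1.00, which is 2-fold, adjusted p = 0.204) and *Nefl* (0.53, adjusted p = 0.392), and *Isl1* had -0.33 (adjusted p = 0.66). *Nefl* was dim, at 4.23 in scramble and 4.76 in MYTHO-KD. The count was 1 without moderation or with the filter on the mean level, and 0 with unequal variances. The motor neuron marker *Chat* was at the floor of the scale, at 3.22 in scramble and 3.18 in MYTHO-KD, and was not marked as expressed. Of 11 fibre markers 2 had a higher average, 6 a lower and 3 an equal one. The 3 equal ones were at the top of the scale, 19.93, in both groups, where a change would be hidden. *Myh1* alone was at an unadjusted p under 0.05 (0.59, adjusted p = 0.230), with *Actn3* at -0.23 (adjusted p = 0.65) and *Tnnc2* at -0.20 (adjusted p = 0.715). All 7 platelet and blood markers had a higher average, with a median of 0.34. Of these, 2 passed the unadjusted threshold, *Alas2* (0.54, adjusted p = 0.301) and *Hbb-bs* (0.55, adjusted p = 0.385), and *Itga2b* had 0.34 (adjusted p = 0.618). The part of macrophages, fibroblasts, endothelium, blood and regenerating fibres in the higher tubulin averages was not tested.

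**Figure D5:**
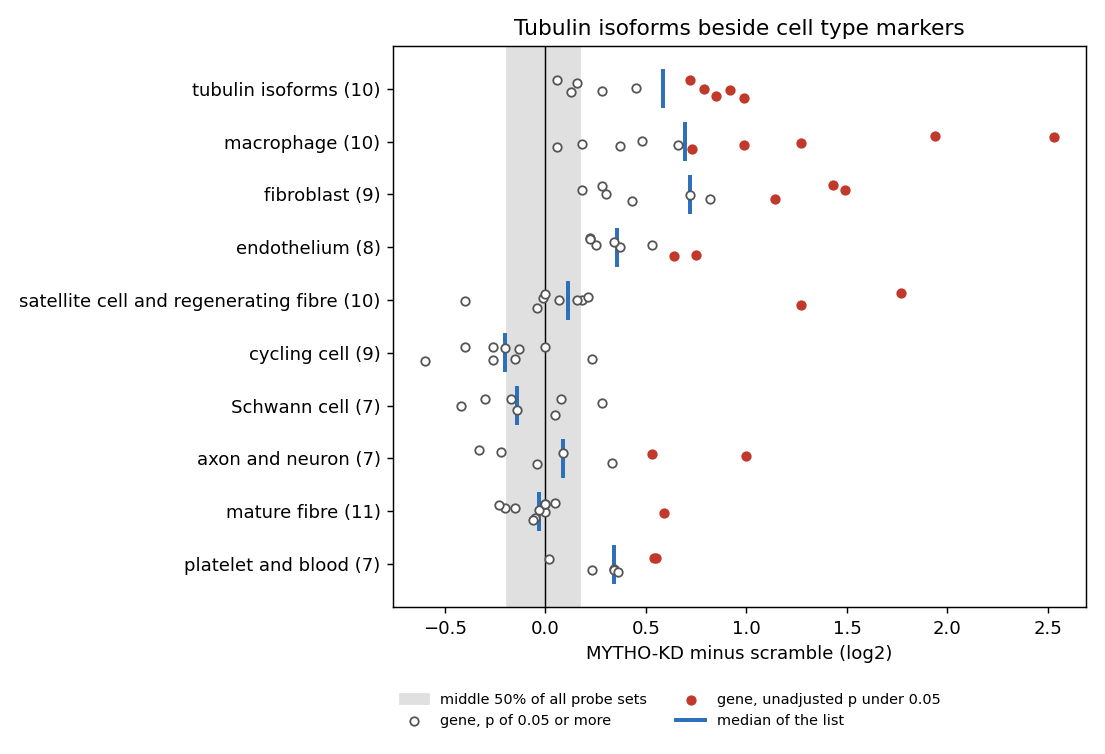
Difference, MYTHO-KD minus scramble (log2), of each tubulin isoform and of each gene in 9 lists of cell type markers, drawn as in the plot of microtubule lists. All genes of the macrophage, fibroblast, endothelium and blood lists lie above 0, while the cycling cell list has a median of -0.20. The medians of the macrophage (0.695) and fibroblast (0.72) lists are above the 0.585 of the isoforms.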

How the data were processed

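GAS muscles from 4 MYTHO-KD and 4 scramble samples were measured on Clariom S arrays. The labels name Affymetrix Expression Console and RMA, and the methods name Transcriptome Analysis Console with default settings. The deposited table (28 columns, decimal commas, annotation na36, mm10) holds the authors' group averages on the log2 scale, the group SDs and expressed flags. It also holds the authors' fold changes, p-values and FDR, which were not used. No column holds a single array, and the kind of average is not stated. If it is not a plain mean, p-values may be somewhat too low. The labels do not say whether the samples of a group came from separate mice, so p-values measure the spread between these samples, which may be technical.

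Differences were tested over all 22206 probe sets with limma's moderated test (limma 3.58.1, R 4.3.3, squeezeVar on the pooled variance of 6 degrees of freedom, two-sided, Benjamini-Hochberg), which was tested on simulated data. The prior SD was 0.284 with 5.85 degrees of freedom. The groups are opposite legs, and the test leaves any pairing out. The thresholds were 0.05 and 2-fold.

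Members and gene lists were chosen with earlier results of these data known. Named were all tubulin genes, the sh-RNA target and, of each other list, the 3 genes of lowest p and any past adjusted p 0.05 or 2-fold. *Mymk* was found under an older symbol, and *Chat* and *Myog* were named after their values were seen. Where a gene had several probe sets, the brightest was used. Promoter windows were read from the RefSeq table. The alternatives were other variance models, filters on dim probe sets, 1 probe set per symbol, subtraction of the median difference and a 1.5-fold threshold.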

Additional observations from a re-analysis of the deposited data

How the results depend on the processing

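No isoform passed an adjusted p of 0.05 in any alternative run. The alternatives change the variances, the threshold or the probe sets kept, and only subtracting the median difference of -0.01 touches the differences. Directions were therefore all but fixed in advance, and that no isoform became lower is no check. The median difference of the isoforms was 0.585, or 0.595 with that subtraction. It was 0.72 with the filter on the mean level, which left out *Tubb2b*. The count of isoforms higher at an unadjusted p under 0.05 was 5, or 4 without moderation and with unequal variances, where *Tuba1b* dropped out. The count past 2-fold was 0, against 1 with the median difference subtracted and 5 at a threshold of 1.5-fold. With unequal variances, the 134 pathway genes had 8 higher at that threshold in place of 13. The 78 marker genes had 17 higher at it, 11 without moderation and 9 with unequal variances. The cause of these moves was not tested, and fewer degrees of freedom enter both of the last settings. Over the single genes and alternatives, 1476 comparisons kept their side of the threshold, 39 lost it and 7 gained it. Of counts per list, 265 stayed equal or within 1.5 times and 29 moved further, some of them only between 1 and 0.

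No paired analysis was possible because the table holds group averages and no single arrays. For the same reason the replicate block and leaving out each replicate in turn were not run, and 1 array that decides a value would not be seen. Near the floor of 3.18 and the top of 19.93 a change can be hidden, and of the isoforms this touches *Tubb2b*.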
